A study of Danio rerio with 4 samples.

Results

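Ion channel genes were taken from the deposited table by symbol: all rows whose symbol begins with kcn and a letter (potassium channels), scn and a digit (sodium channels), cacna, cacnb or cacng (calcium channels), or hcn and a digit (channels opened by hyperpolarization and cyclic nucleotides). This gave 98 of 19924 features, made of 59 potassium, 11 sodium, 25 calcium and 3 HCN genes, all of them annotated Ensembl genes. The study sequenced RNA of zebrafish (Danio rerio) at 3 days post fertilization in 4 libraries made from total RNA with an mRNA library kit. Of these, 2 came from double knockouts of cpa1 and cpa5, genes for carboxypeptidase A enzymes of the exocrine pancreas, and 2 from siblings. All fish came from 1 pair of cpa1+/- cpa5+/- parents. Heads were cut off for genotyping and tail tissue gave the RNA, although the tissue label reads embryo. The genotype label of the siblings reads WT, while their titles call them siblings, and the labels do not say whether they carry 1 mutant copy, how many fish a library holds or which mutations were made. No strain, transgene or drug is named. The libraries are numbered 3 and 4 in each group, and the labels do not say what the number stands for.

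Voltage-gated channels open when the membrane potential changes. Sodium channels carry the upstroke of the action potential, potassium channels end it and set the resting potential, and calcium channels couple the potential to contraction and to transmitter release. In skeletal muscle the L-type calcium channel (pore alpha1S with alpha2delta, beta and gamma subunits) acts mainly as a voltage sensor that opens the calcium store. The tail of a larva is mostly axial muscle, with spinal cord, skin, pigment cells and vessels. In RNA from whole tissue, fewer cells of a type and less RNA per cell cannot be told apart.

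The symbol rule takes in more than voltage-gated pores. Of the 59 potassium genes, 21 code for pore subunits of voltage-gated (Kv) families, 8 for channels opened by calcium or sodium (kcnma, kcnn, kcnt), 16 for inward rectifiers (kcnj), 7 for leak channels with paired pore domains (kcnk) and 7 for accessory subunits. By symbol the sodium genes were 5 pore (alpha) and 6 beta subunits, and the calcium genes 11 pore (alpha1), 3 alpha2delta, 3 beta and 8 gamma subunits. The gamma genes are grouped by name, and whether each acts in a calcium channel was not tested. The deposited domain annotation bears on this independently of the symbols: its leading entry was the ion transport domain in 34 genes and the inward rectifier C-terminal domain in 15. The row named cacna1db goes against its name, since its leading domain entry was that of spindle and ciliary proteins and a separate gene name table pairs its identifier with cfap74, a cilium gene. It is kept by the rule and called "the row named cacna1db". That name table gives the deposited symbol for only 37 of the 98 channel identifiers. How its other names differ is not described here, and classes and subfamilies follow the deposited symbols. The other 10 alpha1 rows carry the ion transport domain. A further 3 channel symbols written in capitals (KCNJ15, KCNMA1 and CACNA2D3) fall outside the rule. Of 26 genes listed for their known roles, the 5 genes scn5lab, hcn4, kcnq1, kcna2b and cacng1b were not analysed here. The table holds only features with a count of at least 26 in some library, so channel genes at lower counts are not described.

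Total counts were 24769258 to 35343524 per library, of which the 98 channel genes took 0.0967% to 0.112%. Counts of both libraries within a genotype differed far beyond sampling noise (chi-square over its degrees of freedom of 90.04 for siblings, 77.7 for double knockouts). Libraries lay apart by number more than by genotype, with 67.6% of the variance of log2 CPM on the component that separates number 3 from number 4. The targeted gene cpa5 was read at 2079, 397, 19 and 15 counts in sibling replicates 3 and 4 and double knockout replicates 3 and 4. Series of 4 values for 1 gene or group keep this order throughout. cpa1 was not analysed here. CPM, scaled by TMM normalization, compare 1 gene between libraries, while FPKM, the authors' values per feature length, compare levels between genes. Means of a genotype are given with their SD over 2 libraries, and fold changes are log2 with their standard error from edgeR's quasi-likelihood test, adjusted over all 19924 features. Nothing in the labels says that libraries came from separate clutches or pools of fish, so the p-values rest on a spread that may be technical. With 2 libraries a genotype that differ by number, even large differences between genotypes can miss the adjusted threshold at any depth, and the mean count was under 50 in 33 of the 98 genes.

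Per length, potassium and calcium channel genes were at about the same summed level, and sodium genes well below. The 59 potassium genes summed to 127, 105, 131 and 110.5 FPKM, and the 25 calcium genes to 116, 111, 130.3 and 113 FPKM. The 11 sodium genes reached 29.8, 27.9, 32.2 and 29.9 FPKM and the 3 HCN genes 1.40, 1.39, 1.53 and 1.21 FPKM. Potassium genes thus held 44.2% ± 1.61 of the summed channel FPKM (SD, n = 4), calcium genes 44.02% ± 1.29 and sodium genes 11.2% ± 0.416. The potassium and calcium shares overlapped over the libraries, and the sodium share lay below both in each of the 4. Within the sodium genes the beta subunits, which are small membrane proteins that modulate and anchor the pore, summed to more FPKM than the pores in all 4 libraries (7.48% against 3.74% of all channel FPKM).

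**Figure D1:**
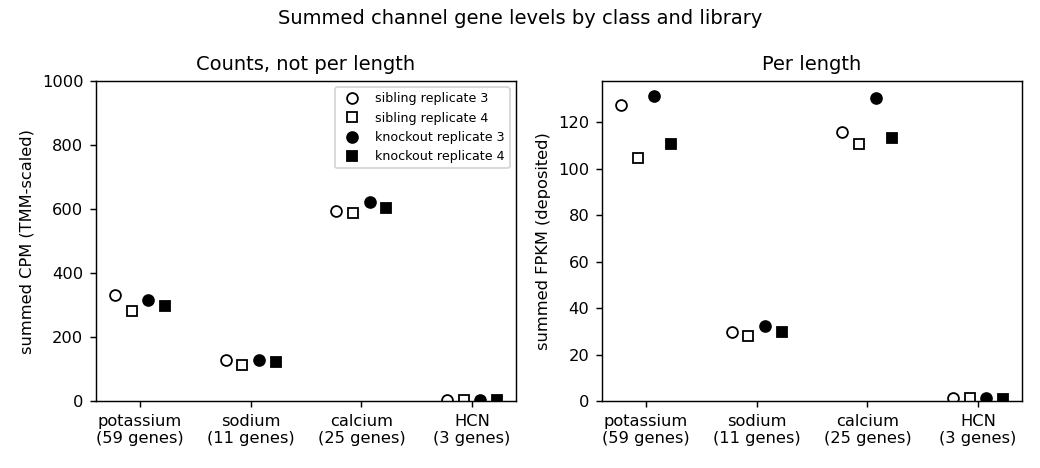
Summed levels of the 4 classes in each library, as TMM-scaled CPM on the left and as deposited FPKM on the right; open symbols are siblings, filled symbols double knockouts, circles number 3 and squares number 4. By counts the calcium genes lead at 588 to 622 CPM, while per length potassium and calcium genes overlap.

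The level was concentrated in few genes, and the first 2 in order were subunits of the muscle L-type channel. The 10 genes with the highest mean FPKM held 51.9% of the summed channel FPKM. First in order was cacna1sb at 31.5 ± 0.763 FPKM (SD, n = 4), which codes for the alpha1S pore of fast muscle in zebrafish, and next cacng1a at 22.7 ± 1.55 FPKM, coding for the muscle gamma subunit. cacna1sb and cacng1a each stood above the gene next in order in all libraries. From the third place on the ranges of neighbours overlapped: kcna7, a Shaker-type Kv pore, had 16.6 ± 5.48 FPKM, and kcnj1a.2, an inward rectifier related to the kidney channel ROMK of mammals, had 14.2 ± 2.59 FPKM. cacna2d1a (alpha2delta) followed at 13.4 ± 2.86 FPKM, cacna1sa, the alpha1S copy of slow muscle, at 8.47 ± 2.34 FPKM, and the beta subunit gene cacnb1 at 7.77 ± 2.22 FPKM. The gamma genes cacng6a and cacng6b lay at 7.90 ± 0.593 FPKM and 6.80 ± 1.46 FPKM.

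Among potassium genes the next in level were kcnj11 at 8.12 ± 2.12 FPKM, coding for the pore of the ATP-sensitive channel, and kcnj12b at 8.10 ± 1.87 FPKM, an inward rectifier that stabilizes the resting potential. kcnmb2, a beta subunit of the calcium-activated BK channel, had 6.003 ± 0.88 FPKM, and kcna6a, another Shaker-type pore, 5.62 ± 2.66 FPKM. kcna6a was read at 644, 322, 543 and 395 counts, and kcna7 at 590, 411, 546 and 457. The higher FPKM of kcna7 thus rests largely on the feature length used, and its leading domain entry was BTB/POZ. The highest sodium genes were the beta subunits scn1bb (7.48 ± 1.02 FPKM) and scn3b (5.22 ± 1.03 FPKM), then the muscle pore scn4ab (4.07 ± 1.01 FPKM) and the neuronal pore scn8aa (3.91 ± 0.119 FPKM). These are close to each other, and the ranges of scn4ab and scn8aa overlapped. The HCN genes, which carry pacemaker currents, were low, with hcn2b at 0.734 ± 0.0469 FPKM. In all, 43 of the 98 genes had a mean above 1 FPKM, made of 22 of 59 potassium, 8 of 11 sodium, 13 of 25 calcium and 0 of 3 HCN genes. The median was 0.774 FPKM for potassium, 2.71 for sodium and 1.12 for calcium genes, against 3.201 over all features.

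**Figure D2:**
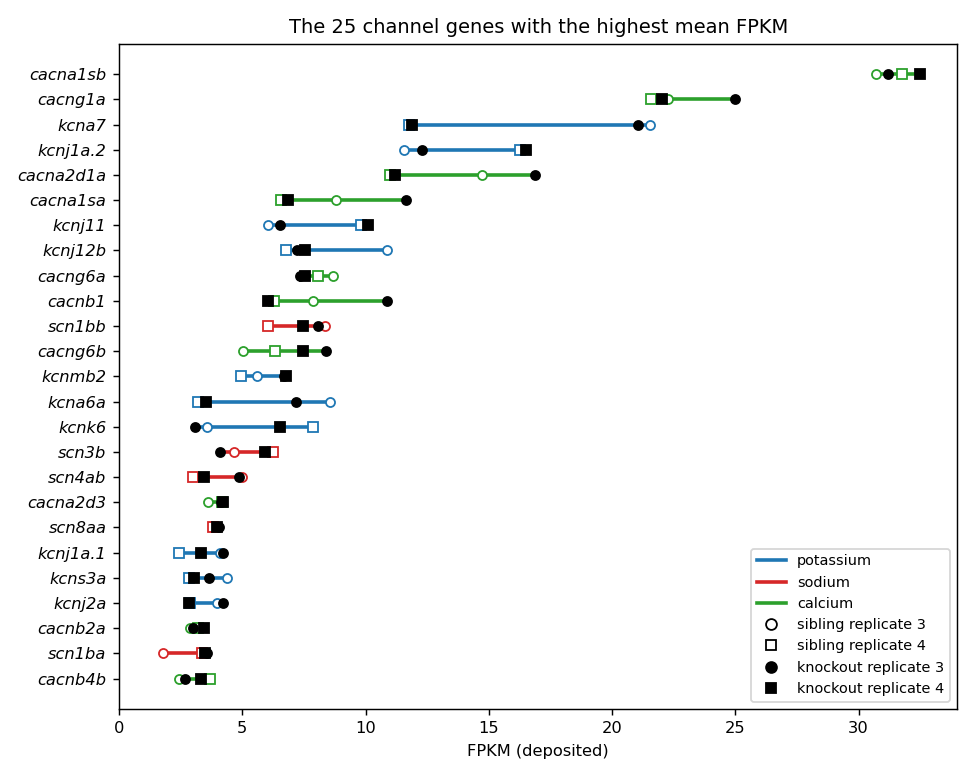
Deposited FPKM of the 25 channel genes with the highest mean, 1 row per gene, with a line from the lowest to the highest library; open symbols are siblings, filled symbols double knockouts, circles number 3 and squares number 4. cacna1sb and cacng1a stand above all other channel genes, and kcna7 and kcna6a have their circles (number 3) well to the right of their squares (number 4).

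Of 7 pairs of gene copies compared per length, the same copy led in all 4 libraries in 6, and the order of cacng6a and cacng6b changed between libraries (ratios of 1.73, 1.28, 0.874 and 1.01). cacna1sb exceeded cacna1sa by 3.49, 4.85, 2.68 and 4.73 times per length, with higher ratios in both number 4 libraries. scn4ab exceeded scn4aa, the second muscle sodium channel gene, by 22.2, 17.8, 24.8 and 25.6 times, and scn8aa exceeded scn8ab by 4.96, 5.40, 4.65 and 6.20 times. kcnj11 exceeded kcnj11l by 3.11, 4.71, 1.40 and 4.35 times, scn1bb exceeded scn1ba by 4.69, 1.80, 2.27 and 2.14 times, and kcnj1a.2 exceeded kcnj1a.1 by 2.84, 6.64, 2.91 and 4.94 times. These pairs were chosen after their values were seen. Reads shared between such copies could be split between them, and how they were counted is not stated in the labels or headers, so levels of single copies are uncertain. The same holds for the neighbouring copies kcnj1a.1 and kcnj1a.2 and for kcnj1a.5 and kcnj1a.6, which lie next to each other in the GRCz12tu assembly, as do kcna1a and kcna6a. The FPKM of some genes carries a further limit: in 25 of 98 channel genes, against 11.6% of all features, the length implied by count and FPKM varied by more than 10% between libraries. Among the widest were kcnf1a (1.64-fold), kcnip3b (1.52-fold) and kcnj11l (1.48-fold), so differences between libraries are given in CPM below.

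Between double knockouts and siblings no channel gene passed the adjusted test. edgeR called 0 of 98 genes, as it called 0% of all 19924 features, and at an unadjusted p under 0.05 it listed 0 of 98 channel genes against 0.502% of all features. DESeq2 called 0 of 98 against 0.0954% of all features, and limma-voom called 0. In the authors' deposited table the smallest unadjusted p of a channel gene was 0.159 (cacng6b) and 0 had an adjusted p under 0.05. Log2 fold changes lay between -0.52 and 0.91, with 56 genes above 0 and 42 below. Their median was 0.02 for potassium, 0.02 for sodium, 0.06 for calcium and 0.07 for HCN genes, against -0.01 over all features. The potassium median turned on single libraries, at 0.32 without sibling replicate 3 and -0.14 without sibling replicate 4. A p that misses the threshold does not show that levels were equal: the standard error of single genes ran from 0.15 to 1.07. The fit had no term for number, so these p-values and standard errors take in the spread between numbers. Its estimated coefficient of variation between libraries was 32.6%, against 15.4% in the fit with genotype and number. An unadjusted 0.05 reached by only 0.502% of all features marks a strict test, so 0 of 98 says little.

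The summed level of each class was also close in both groups. Potassium genes summed to 331, 283, 315 and 297 CPM and sodium genes to 129.9, 114, 128 and 124 CPM, with overlapping groups. Calcium genes summed to 594, 588, 622 and 604 CPM, where both double knockout libraries lay above both sibling libraries (sibling mean 591 ± 4.40 CPM, double knockout mean 613 ± 12.8 CPM). The exact permutation test over libraries (two-sided, 2 against 2) gave p = 0.333 for calcium, 0.667 for HCN and 1 for both potassium and sodium genes. The smallest p this design allows is 0.333, and after adjustment over the 4 classes each was 1.

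**Figure D3:**
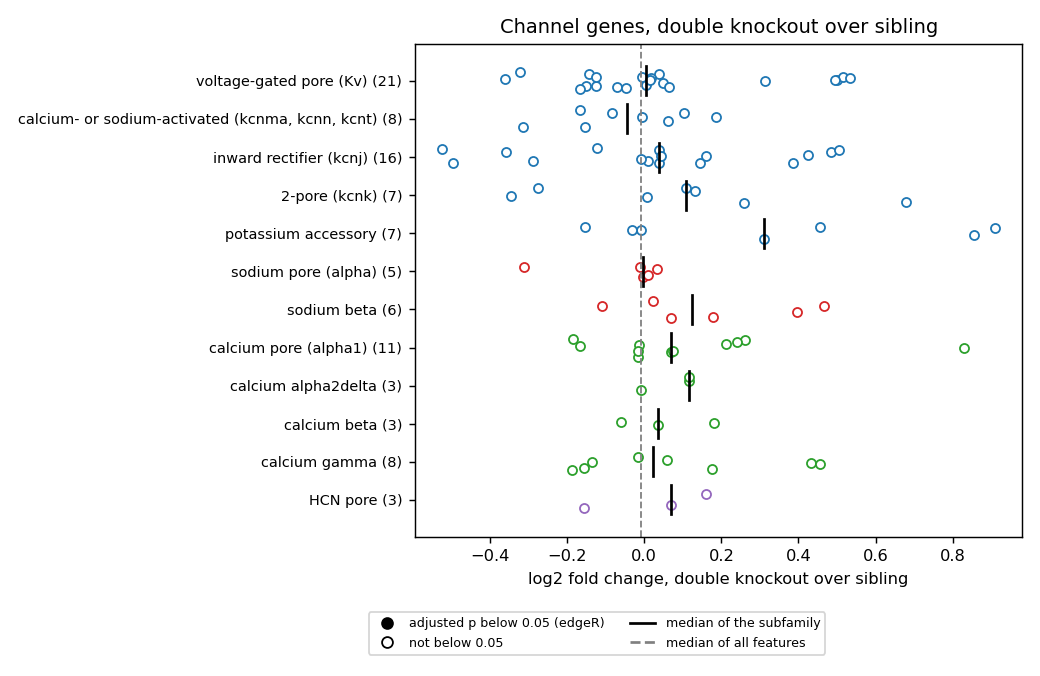
Log2 fold change of double knockout over sibling for the 98 channel genes by subfamily (number of genes in parentheses); each circle is a gene, black bars are subfamily medians and the dashed line is the median of all features. No circle is filled, since no gene passed the adjusted edgeR test, and the genes furthest to the right are kcnip3b, kcnab2a and cacna1ab.

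The groups overlapped in all 5 sodium channel pore genes. scn4ab, the main sodium channel of skeletal muscle, was at 46.01, 28.6, 41.8 and 32.7 CPM, or a sibling mean of 37.3 ± 12.3 CPM and a double knockout mean of 37.2 ± 6.42 CPM. scn8aa, a pore of neurons, was at 31.8, 33.1, 31.6 and 34.7 CPM, and scn1lab, the zebrafish relative of the mammalian brain channel SCN1A, at 7.10, 10.5, 7.33 and 10.3 CPM. scn4aa, the second muscle copy, was at 1.56, 1.21, 1.27 and 0.956 CPM. The main muscle pore scn4ab varied more between numbers than between genotypes. Of the beta subunits, scn2b was at 3.002, 2.51, 4.28 and 3.33 CPM, with both double knockout libraries above both sibling libraries (log2 fold change 0.47 ± 0.27, edgeR adjusted p = 1). scn1ba was at 3.197, 6.19, 5.94 and 6.43 CPM, where sibling replicate 3 stood low and the groups overlapped. Its log2 fold change was 0.40 ± 0.37 (edgeR adjusted p = 1). Without sibling replicate 3 the log2 fold change of scn1ba fell to 9.9e-05.

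In all 11 rows named for calcium channel pores the groups overlapped as well. The alpha1S copies were at 229, 246, 218 and 253 CPM for cacna1sb and 60.9, 47.02, 75.4 and 49.5 CPM for cacna1sa. In both, the spread between the numbers exceeded that between the genotypes. cacng6b, a gamma subunit gene of the kind expressed in muscle, was at 8.69, 11.4, 13.6 and 13.5 CPM and cacng6a, its copy, at 20, 19.04, 16.8 and 17.5 CPM. The double knockouts lay above the siblings for cacng6b (log2 fold change 0.43 ± 0.22) and below them for cacng6a (-0.19 ± 0.17), and neither passed (edgeR adjusted p = 1). cacng6b had the smallest unadjusted p of all channel genes (0.111). cacna1ab, coding for a presynaptic P/Q-type pore needed for transmitter release at the neuromuscular junction, was at 1.25, 1.999, 4.05 and 1.77 CPM. Its log2 fold change of 0.83 ± 0.53 (edgeR adjusted p = 1) rested on double knockout replicate 3, since the other double knockout library lay within the sibling range. Its counts were 32, 63, 105 and 61.

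Calcium channel pores of other tissues were at a few CPM each. cacna1c, the L-type pore of heart, was at 5.38, 5.36, 4.67 and 5.94 CPM. cacna1da, the L-type pore of hair cells, was at 3.04, 3.998, 3.51 and 4.93 CPM (log2 fold change 0.26 ± 0.30, edgeR adjusted p = 1). When each library was left out in turn, the log2 fold change of cacna1da ran from 0.0050 to 0.48. cacna1ba, an N-type pore of nerve terminals, was at 4.17, 3.90, 3.97 and 4.52 CPM. cacnb1 and cacng1a, the beta and gamma partners of alpha1S in muscle, were at 18.99, 15.9, 24.3 and 15.3 CPM and 102, 103, 108 and 106 CPM. For cacng1a the double knockouts lay above the siblings by 1.03-fold at the nearest libraries, with a log2 fold change of 0.06 ± 0.15 that did not pass (edgeR adjusted p = 1). cacna2d1a, the alpha2delta gene, was at 65.1, 50.04, 74.2 and 50.7 CPM with overlapping groups.

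Of the potassium genes, those named for the smallest p were accessory subunits and an inward rectifier, 2 of them at mean counts of 25 and 30. kcnip3b codes for a calcium-binding partner of Kv pores of the kcnd family and was read at 11, 23, 30 and 36 counts (0.429, 0.73, 1.16 and 1.04 CPM, log2 fold change 0.91 ± 0.47). kcnip1b, of the same family, was at 1.91, 1.65, 2.51 and 2.38 CPM (log2 fold change 0.46 ± 0.27), and kcnab2a, coding for a cytoplasmic beta subunit of Shaker-type channels, at 0.429, 0.984, 1.31 and 1.28 CPM (0.86 ± 0.53). In each of these the double knockouts lay above the siblings, and none passed (edgeR adjusted p = 1). For kcnab2a the value was 0.39 without sibling replicate 3 and 1.59 without sibling replicate 4, and for kcnip3b it was 0.59 and 1.35. kcnj11l, a copy related to the ATP-sensitive channel pore, was at 8.15, 9.74, 13.4 and 10.7 CPM (0.43 ± 0.22, edgeR adjusted p = 1), again with the double knockouts above. As a group the 7 accessory genes had a median log2 fold change of 0.31, with 4 above 0 and 3 below. This median takes in kcnip3b, kcnip1b and kcnab2a, named above for their small p, so it is no separate support. The others were kcnmb2 at 0.31, kcnab1b at -0.01, kcne4 at -0.03 and kcnab2b at -0.15. Mean counts were under 50 in 4 of the 7. The median was 0.01 for the 21 Kv pores and 0.04 for the 16 inward rectifiers. It was 0.11 for the 7 leak channels and -0.05 for the 8 calcium- or sodium-activated channels.

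Most potassium genes chosen for their known roles overlapped between the groups. kcnj13, an inward rectifier of pigment cells whose loss alters the stripes of the fish, was at 22.9, 13.7, 25.8 and 11.9 CPM. kcnj10a, the inward rectifier of glia, was at 1.48, 1.11, 1.97 and 0.724 CPM and kcnj1a.1, an ionocyte channel gene, at 8.58, 5.49, 8.37 and 7.33 CPM. The ranges of siblings and double knockouts overlapped in all of these. The fin size genes kcnk5b and kcnh2a were at 6.28, 5.93, 6.83 and 6.35 CPM and 1.52, 1.36, 1.47 and 1.45 CPM, with a log2 fold change of 0.11 ± 0.20 for kcnk5b and 0.02 ± 0.31 for kcnh2a. For kcnk5b the nearest libraries of the groups differed by 1.01-fold. kcnc1a and kcnc3a, Kv pores of fast-firing neurons, were at 2.77, 3.46, 3.01 and 3.30 CPM and 7.88, 4.73, 6.75 and 5.45 CPM, and kcnma1a, the BK pore, at 10.9, 8.73, 10.03 and 9.53 CPM. kcnh6a, the ERG-type pore that repolarizes the zebrafish heart, was at 2.61, 3.14, 1.89 and 2.58 CPM with the double knockouts below the siblings (log2 fold change -0.36 ± 0.30, edgeR adjusted p = 1), while the cardiomyocyte gene myl7 was at 18, 611, 2 and 711 counts. The part of heart tissue in the kcnh6a values was not tested. Of the HCN genes hcn2b was at 2.53, 2.67, 2.08 and 2.58 CPM (log2 fold change -0.16 ± 0.27, edgeR adjusted p = 1).

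Both double knockout libraries lay above both sibling libraries in 15 of 98 channel genes (15.3%, against 8.72% of all features) and below them in 5 (5.1%, against 9.01%). The 15 were 12 potassium, 1 sodium and 2 calcium genes. They included 4 of the 7 potassium accessory genes (kcnip3b, kcnip1b, kcnab2a and kcnmb2) and 4 of the 16 inward rectifiers (kcnj11l, kcnj19a, kcnj19b and kcnj3a). Among these, kcnip3b, kcnip1b, kcnab2a and kcnj11l were already named above for their small p. The 5 below were cacng2a, cacng6a, kcnj1a.5, kcng2 and kcnh6a. The gap between the nearest libraries of the groups was widest for kcnip3b, at 1.43-fold, and 1.00-fold for kcnd2, the narrowest. The 15 genes had a median of their mean counts of 95.5, close to the 94 of all channel genes.

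The genotypes were also compared within each replicate number. Between the number 3 libraries the median log2 difference of double knockout minus sibling was -0.01 for potassium, -0.01 for sodium and -0.02 for calcium genes, and between the number 4 libraries 0.13, 0.07 and 0.04. The 2 differences had the same sign in 45 of 98 channel genes, or 45.9%, against 50.9% of all features. Across the 98 genes their correlation was r = -0.07, and 0.02 across all features; genes of 1 library share its depth and composition and are not independent replicates. cacna1ab went from 1.62 within number 3 to -0.17 within number 4, and kcnk2b, a leak channel gene, from 1.66 to -0.32. scn2b stood at 0.50 and 0.40, kcnip3b at 1.25 and 0.46, and cacng6b at 0.64 and 0.24.

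**Figure D4:**
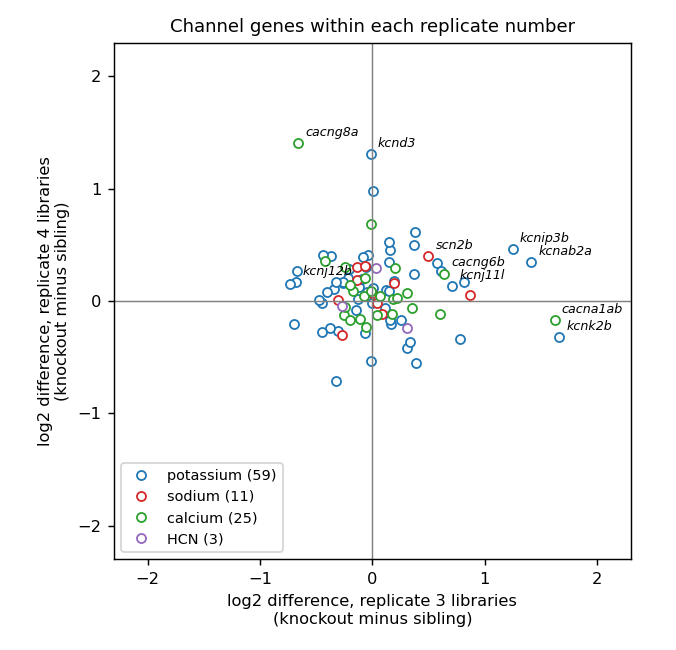
Log2 difference of double knockout minus sibling for each channel gene within the number 3 libraries (x axis) and within the number 4 libraries (y axis), coloured by class, with some outlying genes named. The genes form a cloud around 0 with r = -0.07, and kcnab2a and kcnip3b are furthest to the right among those above 0 in both.

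Between replicate numbers, edgeR did call channel genes, at about the same rate as features in general. With genotype as a term, edgeR called 15 of 98 channel genes between number 4 and number 3, which is 15.3% against 15.1% of all features and so near the background. Of these 4 were higher in number 4 (4.08%, against 6.99% of all features) and 11 lower (11.2%, against 8.16%). On simulated data this edgeR fit made more false calls than its threshold allows, so single calls below are uncertain. DESeq2 called 5 of 98 against 10.6% of all features, namely kcnk6, kcna6a, kcnj13, kcna7 and kcna1a. The other channel genes that edgeR called were not called by DESeq2. By class edgeR called 9 of 59 potassium genes (3 higher, 6 lower), 1 of 11 sodium genes (lower), 5 of 25 calcium genes (1 higher, 4 lower) and 0 of 3 HCN genes. The median log2 fold change of number 4 over number 3 was -0.28 for potassium, -0.18 for sodium and 0.09 for calcium genes, against 0.01 over all features. 42 of 59 potassium genes were below 0, as were 7 of 11 sodium and 10 of 25 calcium genes. The difference between classes was not tested, because genes of 1 library are not replicates.

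The Shaker-type pore genes kcna6a, kcna1a and kcna7 were lower in number 4, and the leak channel gene kcnk6 higher. kcna6a was at 25.1, 10.22, 20.9 and 11.4 CPM, with both number 4 libraries far below both number 3 libraries (log2 fold change -1.08 ± 0.14, edgeR adjusted p = 0.0157). kcna1a, its neighbour on the chromosome and a channel of axons, was at 9.79, 4.44, 9.18 and 5.10 CPM (-0.99 ± 0.17, edgeR adjusted p = 0.0285), and kcna7 at 23, 13.04, 21.1 and 13.2 CPM (-0.74 ± 0.11, edgeR adjusted p = 0.0194). kcnk6, which codes for a leak channel of the TWIK type, was at 17.97, 41.2, 14.5 and 34.3 CPM (1.22 ± 0.10, edgeR adjusted p = 0.00647). It had the smallest p of the channel genes, and its number 4 libraries stood above both others. Summed over the 21 Kv pores the level was 111, 71.7, 102 and 78.3 CPM, lower in both number 4 libraries. This sum takes in kcna6a, kcna7 and kcna1a, so it is no separate support. The sodium-activated channel genes kcnt1 and kcnt2 fell from 35 and 35 counts in number 3 to 12 and 8 in number 4 for kcnt1, and from 45 and 51 to 23 and 22 for kcnt2 (log2 fold change -2.15 ± 0.40 and -1.44 ± 0.31, edgeR adjusted p = 0.0319 and 0.0447).

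Of the inward rectifiers, 1 was called lower and 2 higher. kcnj13 was lower in number 4 at 22.9, 13.7, 25.8 and 11.9 CPM (-0.93 ± 0.13, edgeR adjusted p = 0.0185), with no overlap between the numbers. kcnj11 was higher in number 4 at 8.50, 14.3, 8.60 and 14.8 CPM (0.76 ± 0.12, edgeR adjusted p = 0.0241), and kcnj1a.2 as well at 20, 28.05, 19.8 and 28.6 CPM (0.51 ± 0.10, edgeR adjusted p = 0.0345). Its neighbour kcnj1a.1 was at 8.58, 5.49, 8.37 and 7.33 CPM, with a log2 fold change of -0.41 ± 0.18 that did not pass (edgeR adjusted p = 0.187). Of 10 ionocyte markers 3 were called higher in number 4 and 0 lower, against 6.99% and 8.16% of all features. The ionocyte markers rhcgb, slc9a3.2 and foxi3b were below 0 in log2 fold change without passing. Of these, rhcgb was at 27.3, 4.79, 15.9 and 9.01 CPM (-1.64 ± 0.41, edgeR adjusted p = 0.0595). Of 11 pigment cell markers 3 were called higher (dct, pmela and mitfa) and 0 lower. In log2 fold change 4 of the 11 were below 0, tyrp1b among them at 203, 170.3, 199 and 175 CPM. Summed levels were 235, 249, 193 and 255 CPM for ionocyte markers and 759, 850.1, 849 and 913 CPM for pigment cell markers, with no marker at 0. The part of either cell type in these channel values was not tested.

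**Figure D5:**
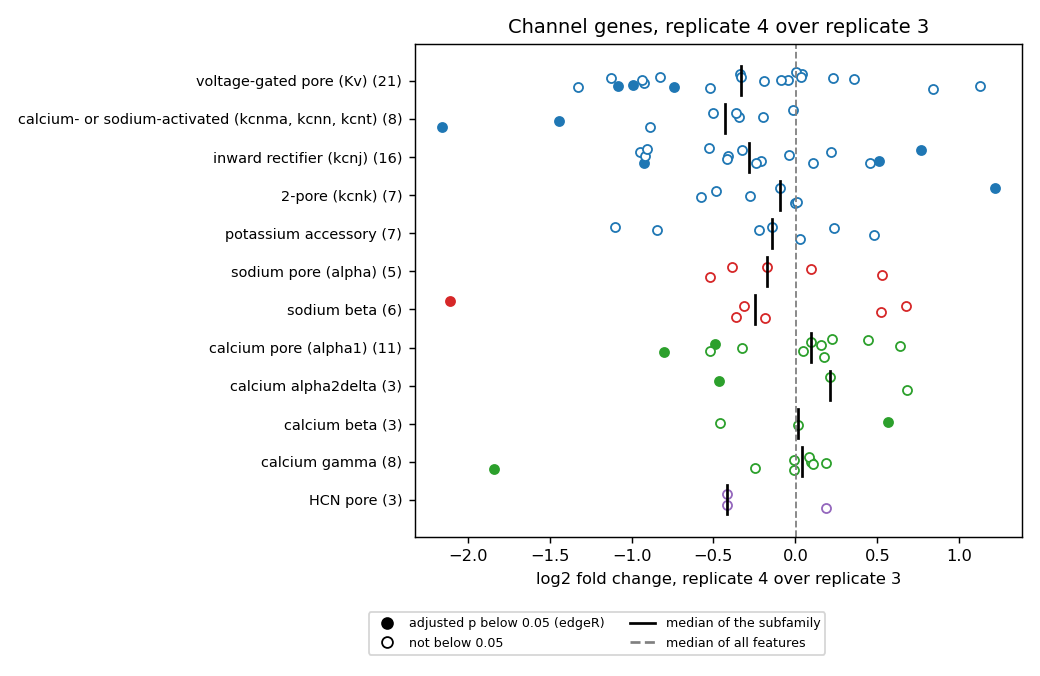
Log2 fold change of replicate 4 over replicate 3 for the 98 channel genes by subfamily (number of genes in parentheses); filled circles passed the adjusted edgeR test, black bars are subfamily medians and the dashed line is the median of all features. All 8 calcium- or sodium-activated genes lie below 0, and the filled circle furthest to the right is kcnk6.

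In the calcium class edgeR called the slow-muscle alpha1S gene cacna1sa and the alpha2delta gene cacna2d1a lower in number 4. DESeq2 called neither (DESeq2 adjusted p = 0.0552 and 0.0698). It also did not call cacna1aa, cacng7a and cacnb4b, given below (DESeq2 adjusted p = 0.130, 0.197 and 0.215). cacna1sa was at 60.9, 47.02, 75.4 and 49.5 CPM (-0.49 ± 0.11, edgeR adjusted p = 0.0478) and cacna2d1a at 65.1, 50.04, 74.2 and 50.7 CPM (-0.46 ± 0.10, edgeR adjusted p = 0.0472). The fast-muscle copy cacna1sb had a log2 fold change of 0.16 ± 0.09, which did not pass (edgeR adjusted p = 0.288), and cacng1a -0.01 ± 0.09 (edgeR adjusted p = 0.965). The presynaptic pore cacna1aa, of the P/Q type, was lower at 8.38, 5.33, 9.49 and 4.93 CPM (-0.80 ± 0.17, edgeR adjusted p = 0.0447), and cacng7a, a gamma gene whose mammalian relative accompanies glutamate receptors, was read at 37, 9, 37 and 18 counts (-1.84 ± 0.40, edgeR adjusted p = 0.0441). cacnb4b, a beta subunit of neurons, was higher in number 4 at 9.63, 15.1, 9.91 and 13.8 CPM (0.56 ± 0.13, edgeR adjusted p = 0.0481). Skeletal muscle markers summed to 94101, 95132, 95195 and 100219 CPM. Of these 18 markers 2 were called higher in number 4 and 0 lower, against 6.99% and 8.16% of all features. The part of muscle in the channel values was not tested.

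Sodium channel genes were called in 1 case. scn4bb, a beta subunit gene, was read at 26, 6, 25 and 9 counts and was lower in number 4 (log2 fold change -2.11 ± 0.43, edgeR adjusted p = 0.0381). DESeq2 did not call scn4bb (DESeq2 adjusted p = 0.243). The muscle pore scn4ab was at 46.01, 28.6, 41.8 and 32.7 CPM, with both number 4 libraries below both number 3 libraries, and did not pass (-0.52 ± 0.12, edgeR adjusted p = 0.0531). The neuronal pore scn8aa had a log2 fold change of 0.10 ± 0.10 (edgeR adjusted p = 0.536). Neuron markers summed to 781, 786, 872 and 852 CPM over 21 measured genes, with 2 called higher and 2 lower in number 4. Glia markers summed to 994, 844, 992 and 842 CPM over 12 genes, with 1 called higher and 4 lower. Of all features 6.99% were called higher in number 4 and 8.16% lower. Among HCN genes hcn5 was at 1.13, 0.761, 1.16 and 0.956 CPM (-0.42 ± 0.33, edgeR adjusted p = 0.417). Of 13 measured cardiomyocyte markers 8 were called higher in number 4 and 0 were called lower (median log2 fold change 2.62), with myh7 at 153, 79.3, 116 and 91.5 CPM going the other way without passing. The summed level of the 13 markers was 217, 210.1, 171 and 219 CPM, and myh7 was the highest of them in each library. This sum therefore does not follow the 8 called markers. tnnc1a and nppb were at 0 counts in a library. The heart channel genes cacna1c and kcnh6a had 0.17 ± 0.20 and 0.35 ± 0.23 and did not pass (edgeR adjusted p = 0.58 and 0.333). The part of heart tissue in these channel values was not tested.

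Genes that work with these channels gave no call by genotype, in an edgeR fit that called 0 of all 19924 features. A count of 0 is therefore not particular to the lists below. Of 30 measured genes of excitation-contraction coupling and the neuromuscular junction, 0 were called between double knockouts and siblings (median log2 fold change 0.02), and the same held for 27 measured genes of channel anchoring and accessory proteins (median 0.05) and 16 of the sodium-potassium pump (median -0.07). The calcium store anchor trdn was at 46.2, 42.6, 61.97 and 47.4 CPM, the axonal anchor ank2a at 26.8, 25.2, 37.3 and 28.4 CPM and the pump subunit atp1b3a at 155, 188, 109 and 143 CPM. These had the smallest p of their lists, at 0.201, 0.161 and 0.109 unadjusted, and none passed (edgeR adjusted p = 1). Marker lists of 9 cell types, those above with vascular endothelium, lateral line hair cells and pancreatic islets, also gave 0 calls by genotype. Their median log2 fold changes ran from -0.15 for cardiomyocyte to 0.15 for neuron markers. Of 21 neuron markers 18 were above 0 and 3 below. Their sums of 781, 786, 872 and 852 CPM were higher in both double knockout libraries. Of 10 ionocyte markers 1 was above 0 and 9 below (median -0.11), while their sums of 235, 249, 193 and 255 CPM overlapped between the groups. Of all features 9535 were above 0 and 10389 below. The part of these cell types in the channel values was not tested. Between numbers, endothelium had 0 of 9 called, hair cells 1 of 9 (higher in number 4) and islets 4 of 9 (2 higher, 2 lower). The islet calls were isl1 and neurod1, higher, and sst2 and pcsk1, lower. isl1 is also on the neuron list and was counted there, and the hormone genes ins, gcga and gcgb did not pass. Of all features 15.1% were called between numbers, 6.99% higher and 8.16% lower.

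Between numbers, 11 of the 30 coupling genes were called, 3 higher and 8 lower in number 4, beside 6.99% of all features called higher and 8.16% lower. The higher ones were ryr1b and ryr2b, coding for calcium release channels, and jph2, coding for a protein that joins the surface membrane to the calcium store. The lower ones were chrne, colq, ache, sypl2a, clcn1a, clcn1b, atp2a2a and asph. By smallest p these were led by chrne, a subunit of the adult acetylcholine receptor, at 30.5, 15.6, 37.4 and 15.4 CPM, colq, which anchors acetylcholinesterase, at 21.3, 11.3, 26.5 and 10.5 CPM, and ache, the esterase itself, at 399, 222, 364 and 239.8 CPM. Other genes of that synapse did not pass, such as chrna1 at 82.5, 104, 93.4 and 107 CPM and chrnd at 36.96, 36.1, 45.6 and 38.9 CPM. For chrne, colq and ache both number 4 libraries lay below both number 3 libraries. Of the anchoring and accessory list 1 was called higher and 1 lower of 27, namely fgf13a, a sodium channel partner, at 8.89, 20.97, 11.6 and 21.01 CPM and nfasca, a cell adhesion protein of the axon initial segment and node, at 13.3, 7.71, 16.9 and 9.68 CPM. The pump list had 0 higher and 4 lower of 16, with atp1a2a, a pump pore of muscle and glia, at 139, 69.5, 132 and 71.2 CPM.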

How the data were processed

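The deposited table of the authors holds, per the file headers, a count and an FPKM value for each feature in each of the 4 libraries, with the authors' log2 fold change, p-value and adjusted p. HISAT2 2.2.1, DESeq2 1.26.0 and the build GRCz11 are named in the submitters' processing notes; of the counting step, its annotation and any use of strand, these sources say nothing. The deposited counts were tested as they stood with edgeR 4.0.16 in R 4.3.3 (quasi-likelihood test, TMM factors, filterByExpr, which kept all 19924 features and all 98 channel genes, Benjamini-Hochberg adjustment over all features, threshold 0.05). Double knockout was compared with sibling without a further term, and replicate 4 with replicate 3 with genotype as a term. Standard errors are the log2 fold change divided by the square root of F, and differences within a number are of log2(CPM + 0.1). Class sums were compared by exact permutation of the libraries. Both fits were also run on simulated data. There the genotype fit missed most changes at every size tried except the largest. The replicate number fit made more false calls than its threshold of 0.05 allows, so its adjusted p-values may be too small.

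Channel genes, cell type markers and related lists were chosen with earlier results of these data known. Named genes are those highest in FPKM, those with the smallest p in each comparison, and genes of known role; any other gene named was chosen after its values were seen. Alternatives were DESeq2 1.42.0, limma-voom and limma on log2(FPKM + 1) with limma 3.58.1, other scalings and filters, a replicate block, and leaving out each library. No sequence is shown, and 1 gene that the level rule names is not reported here by name.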

Additional observations from a re-analysis of the deposited data

How the results depend on the processing

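Channel genes called between double knockout and sibling numbered 0 under each scaling, filter, test and left-out library tried. Over all features the calls numbered 0 in the reported fit, 19 with DESeq2 and 3 with the replicate block. The numbers 3 and 4 are shared by both groups, and deviations of same-numbered libraries correlated at 0.62 over all features and 0.60 over channel genes, but with only 2 pairs and no label on their meaning this is a hint from the data; the block left 0 channel genes called. Between numbers, DESeq2 called 5 channel genes in place of 15, with 1 higher and 4 lower, and the cause was not tested. Of the 15 genes, 12 were called with a minimum mean of 1 CPM, which removes the other 3, 14 with library totals, and 15 with RLE factors, limma-voom or no genotype term. Adding the 3 symbols in capitals gave 16 calls between numbers and dropping the row named cacna1db gave 15, both chosen after seeing the data. Leaving out a library leaves no residual degrees of freedom there, so it gives values with no test, and all 15 genes kept their direction. Leaving out 1 library at a time, the median log2 fold change of double knockout over sibling ran from -0.14 to 0.32 for potassium, 0.022 to 0.13 for sodium, 0.0050 to 0.079 for calcium and -0.095 to 0.30 for HCN genes; the HCN median was 0.0095 with FPKM and -0.0032 with limma-voom. The log2 ratio of summed potassium levels turned positive with library totals (0.029), FPKM (0.058) and without the most abundant gene (0.00013), and ran from -0.11 to 0.11 over left-out libraries. That of HCN genes turned positive with library totals (0.0021) and without the most abundant gene (0.12), and ran from -0.081 to 0.020, and that of sodium genes ran from -0.042 to 0.15. No direction is read from these sums. Of single genes named by genotype, the log2 fold change ran from 0.12 to 1.32 for cacna1ab and from 0.39 to 1.59 for kcnab2a over left-out libraries. Both the spread between 2 libraries and counts under 50 in 33 of 98 genes limit what can be detected.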
